A study of Zea mays with 36 samples.

Results

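LHCB5 (identifier Zm00001eb112260) is 1 of 43459 genes in the leaf expression table of this maize nitrate experiment. It was picked by its identifier, with earlier results of these data known. Its level was followed over 6 time points in 18 leaf libraries. All plants were the inbred line B73, grown in nutrient solution with nitrate for 12 days under 16 h of light and 8 h of dark, and fully developed leaves were taken. Leaf and root samples came from plants on normal nitrogen (NN, sampled once, at 0 h), from plants without nitrate for 0.5, 3 or 24 h (ND), and from plants to which nitrate was returned after 24 h (NR, sampled at 24.5 and 48 h). Each group held 3 replicates, and every replicate was a pool of plants, whose number differs between the labels and the methods. The last group is labelled 48 h, and the methods place it 24 h after resupply. No plants kept on nitrate were sampled after 0 h, so nitrate and plant age cannot be told apart in any comparison with 0 h. The 24 h and 48 h samples were whole days after 0 h, whereas at 0.5, 3 and 24.5 h the hour of day differed as well and cannot be told apart from nitrate.

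LHCB5 encodes CP26, a minor chlorophyll a/b-binding protein of photosystem II. The minor antenna proteins sit between the photosystem II core and the larger light-harvesting trimers, pass on excitation energy, and take part in shedding excess light. Antenna proteins are encoded in the nucleus, are made in large amounts in green leaf cells, and bind a good deal of a leaf's nitrogen together with their pigments. Their transcripts are known to follow light and the time of day in many plants. The study placed LHCB5 among the carbon metabolism genes of a maize nitrogen network.

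The study pairs the identifier with an older maize gene name, through which RefSeq lists the locus on chromosome 2 of the B73 reference assembly NAM-5.0, from 226115138 to 226117234, a span of 2097 bases. RefSeq gives it the synonym lhcb5. The promoter fragment that the study cloned for its yeast one-hybrid screen, in which transcription factors are tested for binding to a DNA bait, was listed as 1999 bases long. Its first 300 bases, as the clone table gives them, are shown because this bait links LHCB5 to the 18 factors described further on. Capitals mark the letters GATA, read on either strand.

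LHCB5 promoter clone: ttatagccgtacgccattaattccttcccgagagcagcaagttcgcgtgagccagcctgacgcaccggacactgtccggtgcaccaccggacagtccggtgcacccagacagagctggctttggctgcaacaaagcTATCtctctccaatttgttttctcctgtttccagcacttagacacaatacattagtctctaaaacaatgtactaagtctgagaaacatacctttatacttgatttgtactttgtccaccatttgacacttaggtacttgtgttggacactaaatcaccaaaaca

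This stretch held 1 GATA match, here on the reverse strand. Of the first 300 bases of 96 other promoter clones, 71.9% held at least 1 such match. The letters ACGT, the core that bZIP factors often contact, had 0 matches in it and were present in 46.9% of the other clones. The longer CACGTG, which contains that core, had 0 matches and was present in 5.21% of the other clones. GCCGCC, a motif bound by many ethylene response factors, also had 0 matches and was present in 24.0% of them. These are letter matches and not sites. The clone sequence was available only in shortened form, so the rest of the clone was not searched and the counts do not cover the whole bait. How far this stretch lies from the start of the gene was not determined.

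Values were TPM, a unit of transcript abundance that scales each library to a fixed total and each gene to its length. Levels of different genes can therefore be set side by side within a library, but TPM keeps no read depth. Between 20367 and 21735 genes reached 1 TPM in a leaf library. The tissue labels fitted the chosen markers: the summed level of 9 leaf genes was 8326 to 14021 TPM in leaf and 17.3 to 205 TPM in root, and the root nitrate uptake genes NRT2.1, NRT2.2 and NAR2.1 reached at most 2.36, 1.59 and 0.461 TPM in leaf. For 8 of the 18 leaf libraries, some library from a different time was closer by correlation across genes than the average library of the same group. These were 0.5 h replicates 1 and 3 and all replicates of 24.5 h and 48 h. The 24.5 h replicate 3 and 48 h replicate 1 libraries were each other's closest library of a different time (r = 0.980 across genes). The same held for 24.5 h replicate 1 with 48 h replicate 3 (r = 0.972). It also held for 24.5 h replicate 2 with 24 h replicate 3 (r = 0.976). Comparisons with 0 h are also given without the first and closest pair, for LHCB5 at 48 h and for list genes called at 24.5 or 48 h. The other pairs were not left out.

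At 0 h, LHCB5 stood at 1397, 1295 and 1423 TPM in replicates 1 to 3. After 0.5 h without nitrate its levels were 1268, 1220 and 997 TPM. After 3 h they were 661, 597 and 719 TPM. The 3 h libraries lay well below all libraries of 0 and 0.5 h, with no overlap. After 24 h without nitrate the levels were 753, 916 and 869 TPM, each above the highest 3 h library and below the lowest 0.5 h library. At 24.5 h, 30 min after resupply, they were 677, 729 and 893 TPM. At 48 h they were 864, 482 and 635 TPM, the widest spread of the series for this gene. No library taken after nitrate withdrawal, before or after resupply, reached the lowest library of 0 h.

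**Figure D1:**
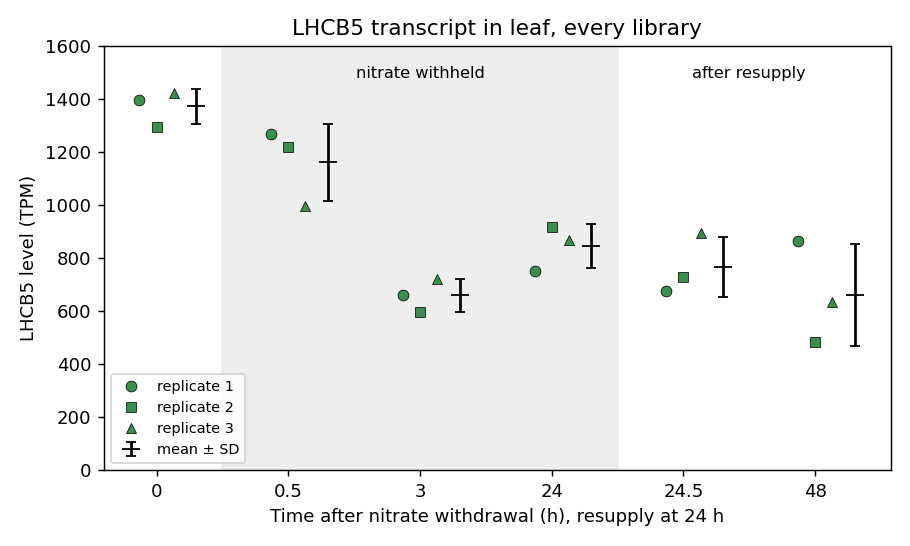
LHCB5 level in TPM (vertical axis, from 0) in each of the 18 leaf libraries, by sampling time in h (horizontal axis, not to scale), with bars for mean ± SD (n = 3) and grey shading over the samples without nitrate. The 0 h libraries lie between 1295 and 1423 TPM, and all libraries from 3 h on lie at or below 916 TPM.

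The mean LHCB5 level before withdrawal was 1372 ± 67.3 TPM (SD, n = 3, here and for the later means). Without nitrate it was 1162 ± 145 TPM after 0.5 h, 659 ± 61.1 TPM after 3 h and 846 ± 84.0 TPM after 24 h. With nitrate returned it was 766 ± 113 TPM by 24.5 h and 660 ± 192 TPM by 48 h. Its coefficient of variation between replicates was 4.91% at 0 h and 29.1% at 48 h. Fold changes were taken from a linear model over all 18 leaf libraries on log2(TPM + 1), fitted in limma across 23268 genes. A gene was called when its Benjamini-Hochberg adjusted p was under 0.05 and its log2 fold change was above 1 in size. The 5 comparisons with 0 h share the same 3 libraries of 0 h.

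LHCB5 fell at 3 h and at 48 h. At 3 h the mean fell by 51.9%, with a log2 fold change of -1.06 (SE 0.184, 95% interval -1.45 to -0.67, adjusted p = 3.8e-04). At that time 5.17% of tested leaf genes were called lower. At 48 h the log2 fold change was -1.09 (interval -1.48 to -0.70, adjusted p = 0.0014), and 1.98% of genes were called lower. Both changes sit close to the fold limit. With quantile normalization they were -0.80 (adjusted p = 0.0017) and -0.84 (adjusted p = 0.0050), and leaving out 3 h replicate 2 gave -0.99 and leaving out 48 h replicate 2 gave -0.89, in each case past the p limit but not the fold limit.

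The other comparisons with 0 h were not called. At 0.5 h the log2 fold change was -0.25 (interval -0.64 to 0.15, adjusted p = 0.50), while 0.769% of genes were called lower. At 24 h it was -0.70 (interval -1.09 to -0.31, adjusted p = 0.021) and at 24.5 h -0.85 (interval -1.24 to -0.46, adjusted p = 0.0062), both past the p limit and short of the fold limit. With 1 library left out, the adjusted p was 0.035 to 0.087 at 24 h and 0.0034 to 0.034 at 24.5 h. The p limit alone was passed by many genes, 5.89%, 35.1%, 14.3%, 21.6% and 25.6% of those tested in order of time. The share of genes called lower was 2.06% at 24 h and 2.15% at 24.5 h. With median-of-ratios scaling the 24.5 h change was -1.09 (adjusted p = 0.0073) and was called.

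The median log2 fold change of all tested genes was itself above 0 at each later time, at 0.037, 0.19, 0.11, 0.22 and 0.25 in order of time. Relative to that median, LHCB5 stood at -0.28, -1.25, -0.81, -1.07 and -1.34 in the same order. At 3 h, 5.32% of tested genes had a lower fold change than LHCB5, and at 48 h 2.21% had. Among the 1637 genes of at least 100 TPM on average, the shares were 9.04% at 3 h and 4.22% at 48 h. LHCB5 thus lay toward the lower end of abundant leaf genes by fold change at both times.

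No difference among the later time points passed both limits. Against 0.5 h, LHCB5 was lower at 3 h by -0.81 on the log2 scale (interval -1.20 to -0.42, adjusted p = 0.0073). At 48 h it was lower than at 0.5 h by -0.85 (interval -1.24 to -0.46, adjusted p = 0.017). Both passed the p limit and fell short of the fold limit, while 24.5 h against 0.5 h was -0.60 (adjusted p = 0.071). From 3 to 24 h without nitrate, LHCB5 was higher by 0.36 on the log2 scale (interval -0.033 to 0.75, adjusted p = 0.18) although the libraries did not overlap, and 3.21% of genes were called higher. Within 30 min of resupply, 24.5 h against 24 h, it differed by -0.15 (interval -0.54 to 0.24, adjusted p = 0.79), and 0.0258% of genes were called in either direction. By 48 h the difference from 24 h was -0.39 (interval -0.78 to -0.0013, adjusted p = 0.27), with overlapping libraries and 0.331% of genes called. Without 24.5 h replicate 3 and 48 h replicate 1, an alternative chosen after the data were seen, the 48 h difference from 24 h was -0.61 (adjusted p = 0.060), the 24.5 h difference from 24 h was -0.26 (adjusted p = 0.39), and 48 h against 0 h was -1.31 (adjusted p = 1.7e-04). The level of 0 h was thus not regained 24 h after resupply in any library.

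Withdrawal and resupply of nitrate were also compared directly, as the change over 30 min of resupply minus the change over 30 min of withdrawal. These intervals share no library. For LHCB5 the difference was 0.098 (SE 0.261, interval -0.46 to 0.65, adjusted p = 0.91), and 0.413% of leaf genes were called. It took the opposite sign without 0.5 h replicate 3 or without 24.5 h replicate 3.

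Ordered by mean level, the time points ran 0 h, 0.5 h, 24 h, 24.5 h, 48 h and 3 h. None of the 5 steps between neighbours passed the adjusted test in limma, and 1 of 5 had an unadjusted p under 0.05. The order came from these same values, so neighbours are the closest levels by choice. A step that did not pass therefore does not show equal levels. Over all genes, 5.89%, 4.75%, 0.0344%, 0% and 15.1% passed at these steps. The step with the low unadjusted p was from 0.5 h to 24 h, with a log2 difference of 0.45 (interval 0.063 to 0.85, adjusted p = 0.15). The lowest neighbours, 48 h and 3 h, had nearly equal means of 660 and 659 TPM. On the log2 scale 48 h minus 3 h was -0.034 (interval -0.43 to 0.36, adjusted p = 0.93), the reverse of their TPM order.

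LHCB5 remained one of the most abundant transcripts of the leaf at its lowest. Its rank among 43459 genes was 81 to 93 at 0 h, 89 to 107 at 0.5 h, 152 to 176 at 3 h, 118 to 140 at 24 h, 120 to 158 at 24.5 h and 122 to 237 at 48 h. It made up 0.137% of all TPM at 0 h and 0.0659% at 3 h, on average. After median-of-ratios scaling the 3 h mean was 0.407 of the 0 h mean, against 0.481 before. In a bulk leaf sample, fewer green cells and less transcript per cell cannot be told apart.

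The other genes of the light-harvesting antenna came from a list of 7, described as chlorophyll a/b-binding proteins in a table of the study. That table held genes it had found to change in root at 0.5 and 3 h, so the list was chosen on root libraries of this series, not on leaf, and may miss members. Of the 7 genes, 0 were called lower at 0.5 h and 0 at 3 h by limma, 1 at 24 h, 4 at 24.5 h and 4 at 48 h. The counts at an unadjusted p under 0.05 were 1 at 0.5 h and 1 at 3 h. At none of the 5 times was a member called higher, where 1.79%, 8.55%, 1.42%, 2.82% and 3.49% of all genes were in order of time. The list's median log2 fold change was -0.34 at 3 h, against 0.19 for all genes, and -1.29 at 48 h, against 0.25. The share of all genes called lower was 0.769%, 5.17%, 2.06%, 2.15% and 1.98% in order of time. At 3 h the log2 fold changes of Zm00001eb161400 and Zm00001eb161410 were both -1.17 (SE 0.80), as large as that of LHCB5 but with a wider error, and fits of only the 0 h and 3 h libraries called 2 of the 7.

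The gene described as CP26 in that table, Zm00001eb161400, carried the same protein name as LHCB5 at a lower level and with a deeper late fall. It stood at 385, 176 and 155 TPM at 0 h and at 104, 72.8 and 120 TPM at 3 h. At 24 h it was at 30.6, 51.4 and 36.5 TPM, below every earlier library. At 24.5 h its levels were 11.04, 9.88 and 116 TPM, and at 48 h 52.0, 5.41 and 9.03 TPM. The libraries that stood high were 24.5 h replicate 3 and 48 h replicate 1, the pair that were closest to each other overall. The log2 fold change was -3.15 at 24.5 h (SE 0.80, adjusted p = 0.014) and -3.87 at 48 h (SE 0.80, adjusted p = 0.0040), and without that pair -4.26 and -4.78.

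Zm00001eb161410, an antenna gene described as chlorophyll a-b binding protein 3, had nearly the same values as Zm00001eb161400, with changes of -3.14 and -3.86 at 24.5 and 48 h, or -4.25 and -4.76 without that pair. In the 18 leaf libraries it was 1.03 to 1.07 times as high in each. Reads shared between near-identical copies or overlapping gene models could give such values, so both levels are uncertain and the pair may count as 1 gene among the 4 that fell late. The LHCB5 level was 3.63 to 9.18 times that of Zm00001eb161400 at 0 h and 16.6 to 89.1 times at 48 h.

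Zm00001eb207130 (chlorophyll a-b binding protein 6) and Zm00001eb255850 (photosystem I chlorophyll a/b-binding protein 5, a minor antenna of photosystem I) were the other late decliners. Zm00001eb207130 was at 1025, 838 and 909 TPM at 0 h and at 321, 162 and 249 TPM at 48 h, with a log2 fold change of -1.97 (SE 0.25, adjusted p = 2.8e-04), or -2.19 without the pair of libraries closest to each other. Its 24.5 h change was -1.49, or -1.65 without the pair. It was also called lower at 48 h against 24 h (-1.41, adjusted p = 0.020), where 0.0903% of genes were called lower. Zm00001eb255850 was the antenna gene called lower at 24 h, at -1.01 (SE 0.17, adjusted p = 0.0023), and was -0.99 with a pseudocount of 5, short of the fold limit. It reached -1.27 at 24.5 h and -1.29 at 48 h, or -1.46 and -1.49 without that pair. At 0 h its libraries were at 349, 296 and 267 TPM and at 0.5 h at 179, 186 and 173 TPM, already without overlap.

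The remaining antenna genes were not called at any time against 0 h. Zm00001eb324090, described as CP29.2, another minor antenna protein of photosystem II, was the most abundant of the 7 with a leaf mean of 1914 TPM. Its log2 fold change was -0.34 at 3 h and -0.69 at 48 h (adjusted p = 0.041). Zm00001eb343900 had values of 0.62 at 24 h (adjusted p = 0.046) and 0.032 at 48 h. Zm00001eb357740 was listed at 0 in some libraries of 0, 0.5 and 24.5 h and at up to 585 TPM in others of the same group, so its fold changes are not read.

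**Figure D2:**
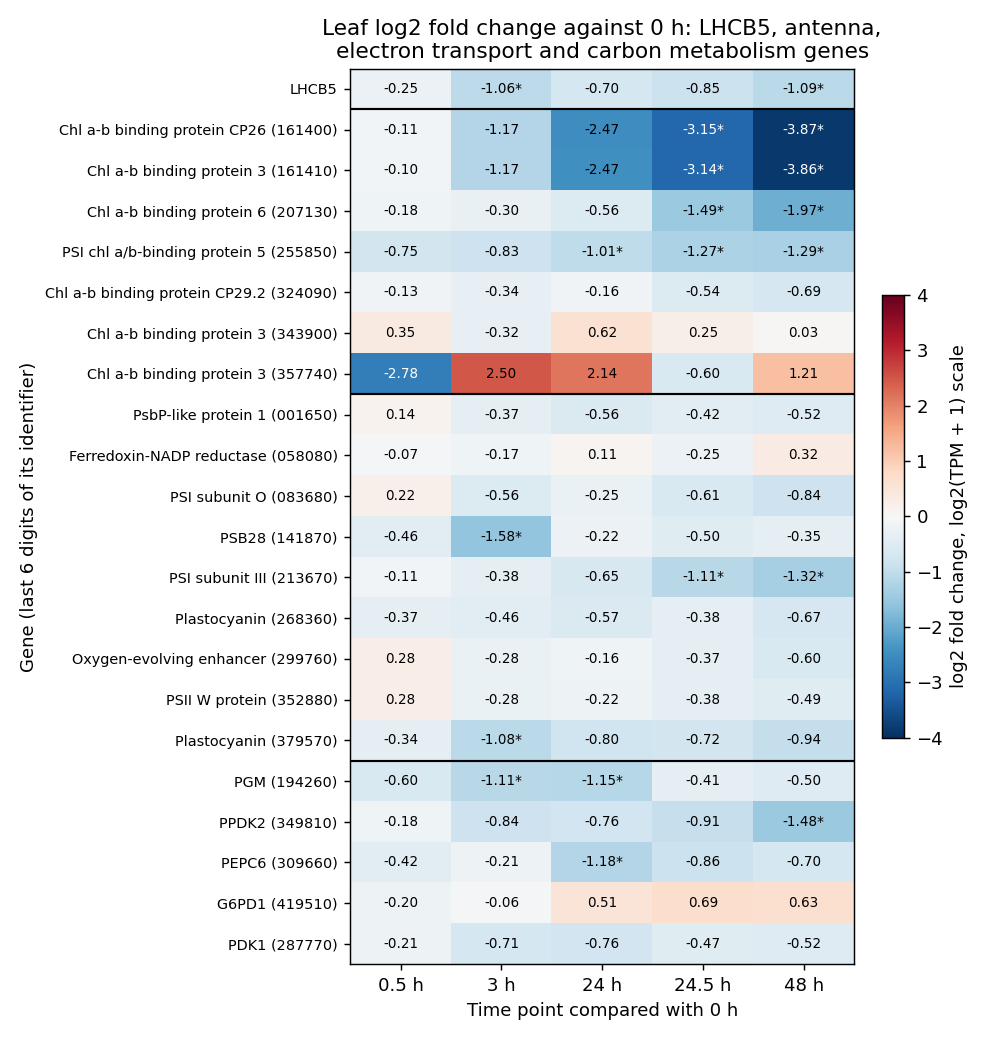
Leaf log2 fold change against 0 h on the log2(TPM + 1) scale (colour and printed value, red higher and blue lower) for LHCB5, 7 antenna, 9 electron transport and 5 carbon metabolism genes (rows) at 5 later times (columns), with stars for called genes and 3 libraries per group. LHCB5 is starred at 3 h and 48 h, and no antenna gene in the block beneath it is starred before 24 h.

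Relative to the other antenna transcripts, LHCB5 stood lower at 3 and 24 h than at 0 and 0.5 h. Its level divided by the summed level of the 7 antenna genes was 0.235 to 0.282 at 0 h and 0.218 to 0.248 at 0.5 h. At 3 h the ratio was 0.156 to 0.176, and at 24 h 0.178 to 0.187. At 24.5 h it was 0.211 to 0.240, and at 48 h 0.186 to 0.252. The 3 and 24 h libraries did not overlap with those of 0 or 0.5 h, while those of 24 h overlapped with 48 h. The sum included Zm00001eb357740, listed at 0 in some libraries of 0, 0.5 and 24.5 h and at 193 TPM or more in all of 3 and 24 h. It also counted Zm00001eb161400 and Zm00001eb161410 separately. This ratio was given as a description, and neither it nor its dependence on these genes was tested.

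**Figure D3:**
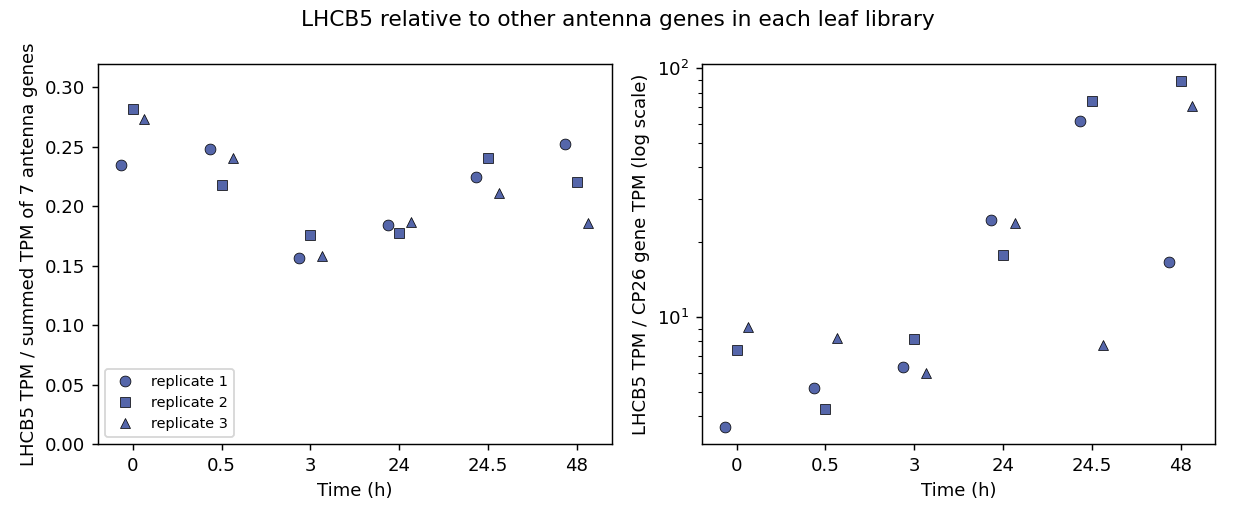
LHCB5 level divided by the summed level of 7 antenna genes (left, linear axis from 0) and by the level of Zm00001eb161400, described as CP26 (right, log axis), in each leaf library by sampling time in h. On the left the 3 h libraries are lowest, at 0.156 to 0.176, and on the right 24.5 h replicate 3 (7.72) and 48 h replicate 1 (16.6) lie below the other libraries of their times.

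Electron transport genes came from the same table and numbered 9. Of these, 0 were called lower at 0.5 h (0 at an unadjusted p under 0.05), 2 at 3 h, 0 at 24 h (2 at an unadjusted p under 0.05), 1 at 24.5 h and 1 at 48 h by limma, with 0 called higher at each of these times. Among all genes, 0.769%, 5.17%, 2.06%, 2.15% and 1.98% were called lower in order of time. Those called higher were 1.79%, 8.55%, 1.42%, 2.82% and 3.49%. The list's median log2 fold change was -0.38 at 3 h and -0.60 at 48 h, against 0.19 and 0.25 for all genes.

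Plastocyanin, the copper protein that carries electrons to photosystem I, had 2 genes on the list. Zm00001eb379570 followed LHCB5 closely, with 1588, 1454 and 1710 TPM at 0 h and 793, 597 and 888 TPM at 3 h. Its log2 fold change at 3 h was -1.08 (SE 0.25, adjusted p = 0.0035), and with quantile normalization -0.84, short of the fold limit. At 48 h it was at 1141, 575 and 853 TPM, high and low in the same replicates as LHCB5. The other plastocyanin gene, Zm00001eb268360, was at -0.46 at 3 h (adjusted p = 0.21).

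PSB28 (Zm00001eb141870), a small protein bound to photosystem II during its assembly, fell from 61.4, 65.2 and 66.6 TPM at 0 h to 24.8, 14.2 and 25.5 TPM at 3 h. Its log2 fold change of -1.58 (SE 0.22, adjusted p = 4.6e-05) was the lowest of the list at 3 h. It then rose from 3 to 24 h by 1.36 (adjusted p = 3.7e-04), the same interval in which LHCB5 moved by 0.36. Photosystem I reaction center subunit III (Zm00001eb213670), a docking site for plastocyanin, was the one called late, at -1.11 at 24.5 h (SE 0.24, adjusted p = 0.0062) and -1.32 at 48 h (SE 0.24, adjusted p = 0.0021). Without the pair of libraries that were closest to each other these were -1.35 and -1.499, and with quantile normalization -0.89 and -0.91, short of the fold limit.

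The remaining members were not called. Photosystem I subunit O (Zm00001eb083680) was at -0.84 at 48 h (adjusted p = 0.0082), and the putative oxygen-evolving enhancer protein (Zm00001eb299760) at -0.60 (adjusted p = 0.0497). The gene described as a leaf ferredoxin-NADP reductase, Zm00001eb058080, had at most 1.69 TPM in leaf and gives no usable fold change.

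Carbon metabolism was represented by 5 genes beside LHCB5, of which 4 are placed in that group by the study and PDK1 was added from its promoter clones. Of these, 0 were called lower at 0.5 h (1 at an unadjusted p under 0.05), 1 at 3 h, 2 at 24 h, 0 at 24.5 h (4 at an unadjusted p under 0.05) and 1 at 48 h, and 0 were called higher by limma. The shares of all genes called lower at these times were 0.769%, 5.17%, 2.06%, 2.15% and 1.98%, and those called higher 1.79%, 8.55%, 1.42%, 2.82% and 3.49%. The group's median log2 fold change was -0.71 at 3 h and -0.76 at 24 h, against 0.19 and 0.11 for all genes.

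PPDK2 (Zm00001eb349810), a pyruvate orthophosphate dikinase, was the carbon gene most like LHCB5, with 85.6, 94.8 and 90.4 TPM at 0 h. After 3 h its libraries were at 53.3, 40.9 and 56.9 TPM, and by 48 h at 41.2, 28.0 and 27.4 TPM. It was called at 48 h (-1.48, SE 0.17, adjusted p = 2.3e-04, and -1.67 without the pair of libraries closest to each other) and was at -0.84 at 3 h (adjusted p = 0.0012). PDK1 (Zm00001eb287770), named for the dikinase that regenerates phosphoenolpyruvate in C4 photosynthesis, was far more abundant, at 7239, 8868 and 8724 TPM at 0 h and 4945, 5414 and 4760 TPM at 3 h. Its log2 fold change was -0.71 at 3 h (adjusted p = 0.0049) and -0.76 at 24 h (adjusted p = 0.011), and it was not called.

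PGM (Zm00001eb194260), an enzyme of carbohydrate metabolism, fell at 3 h by 1.11 and at 24 h by 1.15 on the log2 scale (SE 0.29, adjusted p = 0.0071 and 0.017). With a pseudocount of 5 these were -0.77 and -0.79 and no longer passed the fold limit. The leaf level of PGM was low, 3.85 to 14.7 TPM. PEPC6 (Zm00001eb309660), a phosphoenolpyruvate carboxylase, was at 87.8, 97.2 and 82.6 TPM at 0 h and at 44.3, 37.9 and 34.3 TPM at 24 h, a change of -1.18 (SE 0.18, adjusted p = 0.0011). At 3 h, where LHCB5 was called lower, PEPC6 was at -0.21 (adjusted p = 0.39). G6PD1 (Zm00001eb419510), a glucose-6-phosphate dehydrogenase of the pentose phosphate pathway, had values above 0 from 24 h on, reaching 0.69 at 24.5 h (adjusted p = 0.034).

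In the study's yeast one-hybrid screen, 18 transcription factors bound the LHCB5 promoter clone. Of these, 9 were bZIP factors, which are basic leucine zipper proteins. Others belonged to the ethylene response (EREB), CCCH zinc finger (C3H), GATA and growth-regulating (GRF) families. The rest were Orphan53, Orphan220 and Zmtt1/WD40. The screen was made in yeast, so the list does not depend on these libraries. In leaf, 14 of the 18 passed the filter of 1 TPM in at least 3 libraries. ZmEREB13, ZmEREB186, ZmC3H3 and ZmGATA13 did not, and none of them exceeded 1.27 TPM in a leaf library.

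Of the 14, at 0.5 h 1 was called higher, where 1.79% of genes were, and 0 lower, where 0.769% were. At 3 h 1 was called higher, where 8.55% of genes were, and 2 lower, where 5.17% were. At 24.5 h 1 was called higher, where 2.82% of genes were, and 0 lower, where 2.15% were. At 24 h 1.42% of genes were called higher and 2.06% lower, and at 48 h 3.49% and 1.98%. At both times 0 of the factors were called by limma in either direction, with 4 and 3 at an unadjusted p under 0.05. The list's median was 0.099 at 3 h, against 0.19 for all genes.

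ZmbZIP111 (Zm00001eb031210) was the factor that rose. It was at 105, 140 and 248 TPM at 0 h, at 582, 604 and 477 TPM at 0.5 h, and at 611, 656 and 617 TPM at 3 h. Its log2 fold change was 1.83 at 0.5 h (SE 0.38, adjusted p = 0.0099) and 2.02 at 3 h (SE 0.38, adjusted p = 6.7e-04). By 24 h it was back at 215, 248 and 245 TPM, a fall from 3 h of 1.41 on the log2 scale (adjusted p = 0.013), where 6.06% of genes were called lower. At 24.5 h it was at 548, 627 and 215 TPM, called at 1.44 (SE 0.38, adjusted p = 0.015), with replicate 3 close to the 24 h libraries. That 24.5 h call was lost when only the 24.5 h and 0 h libraries were fitted (adjusted p = 0.066), and without 24.5 h replicate 3 and 48 h replicate 1 the change was 1.92.

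ZmbZIP104 (Zm00001eb233420) and ZmbZIP12 (Zm00001eb264930) fell at 3 h, as LHCB5 did. ZmbZIP104 went from 20.2, 28.3 and 18.3 TPM at 0 h to 6.33, 10.3 and 5.46 TPM 3 h later, a log2 fold change of -1.495 (SE 0.28, adjusted p = 6.3e-04). ZmbZIP12 went from 89.6, 78.5 and 84.6 TPM to 41.8, 40.0 and 42.7 TPM, a change of -1.004 (SE 0.17, adjusted p = 2.5e-04) that lies at the fold limit and was -0.94 with a pseudocount of 5. At 24 h they stood at -0.77 and -0.58 and were not called.

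ZmC3H11 and ZmbZIP37 had changes with small errors that did not pass the fold limit at any time. ZmC3H11 (Zm00001eb169920) was at 47.8, 45.4 and 45.0 TPM at 0 h and at 21.8, 21.5 and 25.5 TPM at 3 h, with a log2 fold change of -0.98 (SE 0.11, adjusted p = 6.6e-06). ZmbZIP37 (Zm00001eb411700) went the other way, from 13.2, 13.3 and 11.7 TPM to 22.9, 22.2 and 20.8 TPM, a change of 0.74 (SE 0.16, adjusted p = 0.0018). Both sets of 3 h libraries were clear of those of 0 h. By limma, ZmC3H11 was past the p limit at every later time. Its changes were -0.44, -0.98, -0.65, -0.54 and -0.59 in order of time. ZmbZIP37 was past the p limit at 3, 24.5 and 48 h, at 0.74, 0.58 and 0.66.

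**Figure D4:**
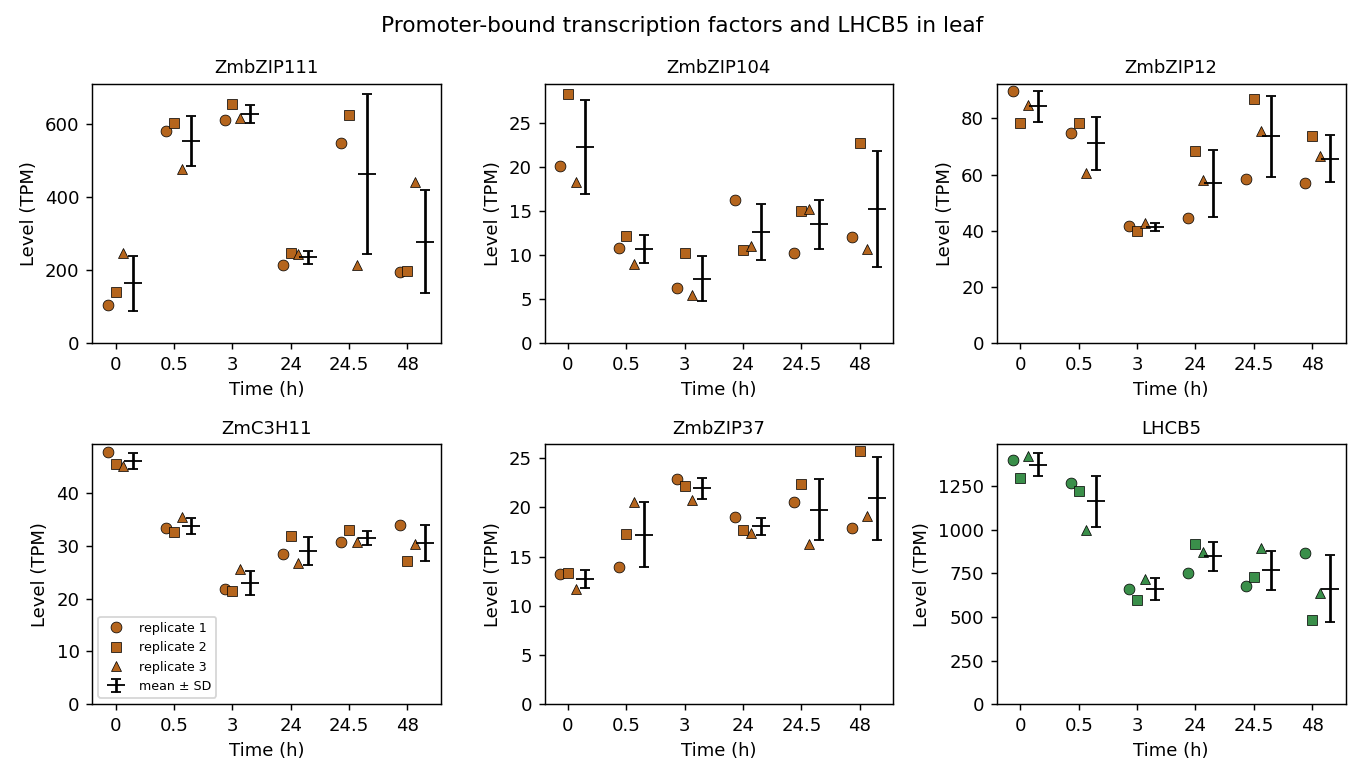
Levels in TPM (vertical axes, from 0, separate scales) of 5 promoter-bound transcription factors and of LHCB5 in each leaf library by sampling time in h (horizontal axes), with bars for mean ± SD (n = 3). ZmbZIP111 is at 477 to 604 TPM at 0.5 h against 105 to 248 TPM at 0 h, and ZmbZIP104, ZmbZIP12 and ZmC3H11 are lowest at 3 h, as is the LHCB5 mean.

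Likeness to LHCB5 was measured as the Pearson correlation of log2(TPM + 1) over the 18 leaf libraries, among 12153 genes of at least 10 TPM on average. Libraries of one time point share their treatment, and the abundance scale ties all genes of a library together, so these values are descriptions. The median correlation over these genes was -0.43, 20 genes were above 0.9 and 70 were below -0.9. The closest were Zm00001eb273380 (r = 0.956) and Zm00001eb406800 (r = 0.955), for which no name is given here. Zm00001eb273380 averaged 5131, 3449 and 3182 TPM at 0, 3 and 48 h. Zm00001eb406800 averaged 424, 146 and 152 TPM at the same times.

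Among the genes of the lists, plastocyanin Zm00001eb379570 was closest (r = 0.945), followed by photosystem I subunit O (r = 0.888). The antenna genes ranged from 0.812 for Zm00001eb255850 to -0.160 for Zm00001eb357740, with 0.787 for Zm00001eb161400. The lowest of the electron transport list were PSB28 (r = 0.529) and Zm00001eb058080 (r = -0.0040). Of the study's nitrogen network, in which 290 other genes were tested, PPDK2 (r = 0.871), the NAC family factor NAC9 (r = 0.819) and ZmC3H11 (r = 0.797) were most alike. The most opposed were ZmbZIP37 (r = -0.907), the auxin response factor ARF7 (r = -0.890) and AMF1-2 (r = -0.842). After median-of-ratios scaling these became 0.910, 0.879 and 0.891, and -0.786, -0.809 and -0.651, in the same order. Of the promoter-bound factors the second highest was ZmbZIP12 (r = 0.565) and the second lowest ZmbZIP30 (r = -0.513), which moved to -0.052 after median-of-ratios scaling.

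Root values of LHCB5 were used only as a measure of leaf RNA in the root libraries. Transcript made in root itself and leaf RNA cannot be told apart by this gene alone. The levels were 2.68, 1.12 and 4.10 TPM at 0 h and 4.83, 7.44 and 1.08 TPM at 0.5 h. At 3 h they were 11.01, 0.440 and 0 TPM, and at 24 h 1.21, 1.297 and 1.58 TPM. Later they were 1.07, 3.45 and 17.96 TPM (24.5 h) and 7.22, 4.17 and 9.60 TPM (48 h). Replicates of the 0.5, 3 and 24.5 h groups lay far apart. None of the 5 comparisons with 0 h was called in limma, and 0 had an unadjusted p under 0.05, while 2.91%, 3.72%, 3.76%, 5.19% and 3.45% of root genes were called in order of time. At 48 h the libraries lay above those of 0 h, with a log2 fold change of 1.17 (SE 0.84, interval -0.62 to 2.96, adjusted p = 0.38).

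The LHCB5 level in root moved with that of other leaf genes in the same library. For 229 genes with at least 100 TPM in leaf and a median root level under 1% of that, the median root level was 0.0791% to 1.95% of the leaf mean, depending on the library. LHCB5 as a share of its own leaf mean, divided by this median, had a median of 0.933 over the 18 root libraries and ranged from 0 to 1.67. The library with the most LHCB5, 24.5 h replicate 3, held it at 1.97% of its leaf mean, against 1.95% for the other leaf genes. The 48 h libraries held it at 0.792%, 0.457% and 1.05%, against 0.643%, 0.446% and 1.01%. In 3 h replicate 3 LHCB5 was listed at 0 and the other leaf genes were at 0.0886%, and in the remaining libraries the quotient was 0.611 to 1.67, highest in 0 h replicate 1.

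**Figure D5:**
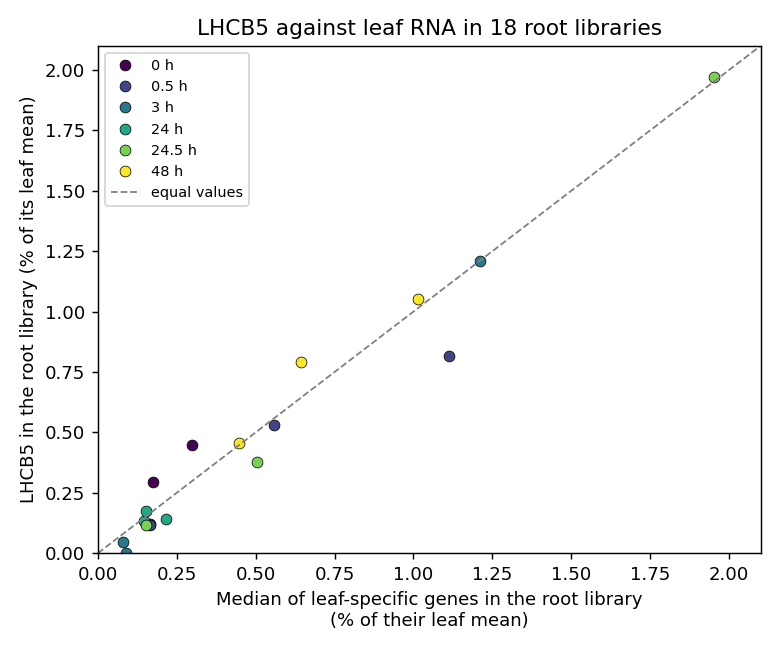
LHCB5 in each of 18 root libraries as % of its leaf mean (vertical axis) against the median of 229 leaf-specific genes in the same library as % of their leaf mean (horizontal axis), coloured by sampling time, with a dashed line of equal values. The vertical value divided by the horizontal value runs from 0 to 1.67, and the topmost point, a 24.5 h library, lies at 1.95% and 1.97%.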

How the data were processed

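The authors deposited TPM values per gene in separate leaf and root tables. Per the methods, maize reads were aligned with STAR to B73 version 5 without trimming and quantified with StringTie, whereas the submitters' processing notes also list Trimmomatic. Library kit, sequencer, nutrient solution and pool size differ between the labels and the methods. Read depth is unknown, and a 0 means only that a gene was listed at 0.

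Values were transformed as log2(TPM + 1), which understates changes of low genes. In each tissue, genes reaching 1 TPM in 3 or more libraries were fitted with limma 3.58.1 (R 4.3.3) over all 18 libraries of that tissue, with a mean-variance trend, two-sided tests and Benjamini-Hochberg adjustment over all genes of a contrast. The procedure was tested on simulated data. P-values measure the spread between pooled replicates.

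The gene, the lists and the tests were chosen with earlier results of these data known. Named were LHCB5, all antenna and carbon metabolism genes, electron transport genes and promoter-bound factors called against 0 h or with the 2 highest and 2 lowest correlations, the 3 highest and 3 lowest of the network, and the 2 highest overall. Zm00001eb268360, Zm00001eb299760 and the 4 factors below the filter were named after their values were seen. Gene names are those of the study, and 0 columns of the tables were left unused. Alternatives were another pseudocount (0.1 or 5), another filter (none, or a mean of 5 TPM or more), quantile normalization, median-of-ratios scaling, a replicate block, fits of only the groups compared, calls by adjusted p alone, and leaving out each library in turn. Replicate numbers did not pair the libraries. Figures were drawn with matplotlib 3.10.9.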

Additional observations from a re-analysis of the deposited data

Results flagged for a closer look

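LHCB5 values at 48 h against 0 h differed in sign between the leaf and root libraries. All leaf libraries of 48 h lay below those of 0 h (log2 fold change -1.09). All root libraries of 48 h lay above those of 0 h (1.17, interval -0.62 to 2.96), the closest at 4.17 against 4.10 TPM. The root values serve only as a measure of leaf RNA. The difference between the tissues was not tested, and the root change was not called. The leaf-specific genes in the 48 h root libraries were at 0.446% to 1.01% of their leaf mean, against 0.164% to 0.299% at 0 h, and the part of this shift in the root value was not tested.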

How the results depend on the processing

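LHCB5 kept its sign in leaf against 0 h under all alternatives run. Quantile normalization took its changes at 3 h (-0.80) and 48 h (-0.84) under the fold limit, median-of-ratios scaling took the 24.5 h change (-1.09) past it, and calls by adjusted p alone added 24 h (-0.70) and 24.5 h (-0.85). Leaving out 1 library gave -1.12 to -0.99 at 3 h, -1.31 to -0.89 at 48 h, -0.96 to -0.76 at 24.5 h, -0.76 to -0.62 at 24 h and -0.31 to -0.14 at 0.5 h. It gave 0.29 to 0.44 for 24 h against 3 h, -0.26 to -0.063 for 24.5 h against 24 h, -0.61 to -0.19 for 48 h against 24 h, and -0.017 to 0.18 for resupply minus withdrawal, which was also -0.017 without 24.5 h replicate 3 and 48 h replicate 1. In root the ranges were 0.029 to 1.04 at 0.5 h, -1.51 to 0.29 at 3 h, -0.88 to -0.25 at 24 h, -0.17 to 1.43 at 24.5 h and 0.82 to 1.46 at 48 h, and a pseudocount of 5 gave 0.0090 at 3 h. The ratio of the 3 h to the 0 h mean was 0.407 with median-of-ratios scaling. With the replicate block, LHCB5 at 3 h was -1.06 (adjusted p = 7.3e-04), and the block changed no call. Same-numbered leaf libraries had correlations of deviations from -0.26 to 0.45, with 12 of 45 above 0.1, and 6 of 18 libraries correlated best with their own number. Counts of list genes moved by over 1.5 times as follows. With a pseudocount of 0.1, 2 factors were called at 0.5 h. With a pseudocount of 5, 2 antenna genes were called at 24 h, and 0 carbon genes at 3 h and 1 at 24 h. With a mean of at least 5 TPM, 3 antenna genes were called at 24 h. With median-of-ratios scaling, 1 antenna gene was called at 3 h, 3 electron transport genes at 48 h, 2 carbon genes at 3 h and 2 at 24.5 h, and 2 factors at 0.5 h. With quantile normalization, electron transport calls were 1 (3 h), 0 (24.5 h) and 0 (48 h), with 2 carbon genes at 24.5 h and 2 factors at 0.5 h. By adjusted p alone, antenna calls were 1, 1 and 2 at 0.5, 3 and 24 h, electron transport 1, 3 and 5 at 24, 24.5 and 48 h, carbon 3, 4, 3 and 4 at 3, 24, 24.5 and 48 h, and factors 3, 5, 2, 3 and 2 over the 5 times. The counts by adjusted p alone join both directions. Of all tested genes, 5.89%, 35.1%, 14.3%, 21.6% and 25.6% passed that limit in order of time, and the counts were not tested against these shares. With only the groups compared, antenna calls were 2 (3 h) and 3 (24 h), and factor calls 0 (24.5 h). Without 24.5 h replicate 3 and 48 h replicate 1, 3 electron transport genes were called at 48 h. The cause of these shifts was not tested. Of 253 alternatives of single genes and correlations, 8 lost a call and 26 correlations moved by over 0.1 with median-of-ratios scaling.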
